A study of Bos taurus and Ovis aries and Capra hircus with 9 samples.

Results

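DGAT1 is 1 gene among the 27607 annotated in the cattle count tables, and it was followed in liver across 3 ruminants. The rule that picks it uses its name and position and no expression value: in the cattle genome ARS-UCD1.2, the gene ENSBTAG00000026356 lies on chromosome 14 and spans position 611019, the position by which the gene was identified. The data are liver RNA-seq from 9 healthy adult animals that received no stated treatment, namely 3 cattle (Holstein), 3 sheep (Texel), and 3 goats (Yunnan black goat), with 1 library per animal (A, B, and C in each species). Each species is represented by 1 breed, and the study's methods give a higher range of age for the cattle, so species, breed, and age cannot be told apart, nor can they be told apart from the genome and the gene annotation used for counting. Whole liver tissue was sequenced, in which fewer cells of a type and less RNA per cell cannot be told apart, and the liver's cell type markers were not checked because no table used here pairs gene names with these identifiers.

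DGAT1 encodes diacylglycerol O-acyltransferase, an enzyme of the endoplasmic reticulum membrane that belongs to the membrane-bound O-acyltransferase family. It joins a fatty acyl-CoA to diacylglycerol, the last step of triglyceride synthesis, which the unrelated enzyme DGAT2 also carries out. In the liver, triglycerides made at this step are stored in lipid droplets or exported in very low-density lipoprotein, and in dairy cattle the gene is best known for its effect on the fat content of milk.

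The gene model was first compared between the genomes. In cattle, DGAT1 ran from 603813 to 612791 of chromosome 14 on the plus strand, with 17 exons that sum to 2134 nt, and position 611019 fell in exon 8, inside an exon of 75 nt. Its match in sheep was ENSOARG00020004887 on chromosome 9 of Oar_rambouillet_v1.0, from 14811523 to 14819940 on the plus strand, with 17 exons of 1522 nt in all. In goats the match was ENSCHIG00000022990 on chromosome 14 of ARS1, from 81330266 to 81338598 on the minus strand, with 18 exons of 1519 nt in all.

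These matches rested on the order of internal exon lengths and on the neighbouring genes. All 15 internal exons had the same length, in the same order, in cattle and sheep, and 13 of them were matched in order with the 16 internal exons of the goat gene. The score of the match, which is higher for rarer exon lengths, was 117.0 in sheep against 39.6 for the next best sheep gene, and 101.5 in goats against 44.6. Of the gene pairs around DGAT1, 19 lay near it in both cattle and sheep, and 18 in both cattle and goats. DGAT1 was therefore among the 8122 genes shared by the 3 species.

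The annotated models differed mainly at their ends. In cattle the first exon had 570 nt and the last 441 nt, against 199 nt and 200 nt in sheep and 191 nt and 156 nt in goats. The internal exons summed to 1123 nt in both cattle and sheep and to 1172 nt in goats. The 2 end exons thus made up 47.4%, 26.2%, and 22.8% of the annotated exon length in cattle, sheep, and goats. The goat model also differed inside, where exon 4 had 110 nt against 86 nt in cattle and sheep. Its exon 10, of 28 nt, followed an intron of only 5 nt. The effect of these internal differences on the goat counts was not tested. The long first intron was much alike, with 3660 nt in sheep, 3644 nt in goats, and 3616 nt in cattle. Across the shared genes tested, the cattle annotation was longer as well: the ratio of exon length between cattle and sheep was 1.40 for DGAT1 and 1.27 for the median gene, and between cattle and goats 1.41 and 1.18. Levels are therefore given below both relative to the counts of the library and, further, per kb of annotated exon.

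**Figure D1:**
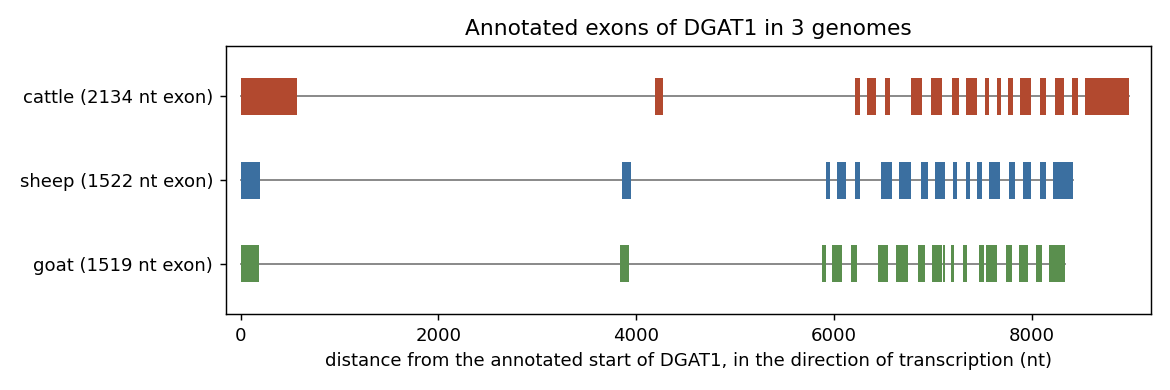
Exons of DGAT1 (boxes) and introns (lines) against the distance from its annotated start in nt, in the direction of transcription, for cattle, sheep, and goats. The first and last exons are longest in cattle, at 570 nt and 441 nt, so that the second exon begins 4186 nt from the annotated start in cattle but 3859 nt from it in sheep and, in goats, 3835 nt.

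The libraries held 16507706 to 61105490 counts on genes, and 1813 to 4961 of these fell on DGAT1, far above the floor of 3 counts used here, which takes no account of reads duplicated during PCR. Goat library C stood apart from the other 8 libraries. It had the fewest counts and a TMM factor (the scaling that edgeR sets from the bulk of the genes) of 1.52, against 0.836 to 1.06 elsewhere. Mitochondrial genes took 10.4% ± 0.699 of all cattle counts but 2.45% ± 0.502 of the sheep and 2.23% ± 1.34 of the goat counts (SD, n = 3 each), so that CPM of the library total is lower in cattle for any other gene by this share.

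DGAT1 was lower in the cattle livers than in the sheep and goat livers in every library. Of all counts on genes, DGAT1 took 51.4, 53.5, and 55.3 CPM (counts per 1000000 counts on genes) in cattle A, B, and C. In sheep it took 109.6, 121.6, and 121.7 CPM, and in goats 61.7, 79.1, and 133.8 CPM. On this scale the 3 cattle livers lay close together, the sheep livers were nearly as tight in proportion, and the goat livers were widely spread, with goat C above all sheep libraries and goat A nearest to cattle. The means were 53.4 ± 1.94 CPM in cattle, 117.6 ± 6.96 CPM in sheep, and 91.5 ± 37.6 CPM in goats (SD, n = 3 each).

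After TMM scaling over the shared genes, the goat libraries drew closer together and the sheep libraries spread apart. DGAT1 was at 107.0, 97.8, and 112.0 TMM-normalized CPM in cattle, relative to the counts on shared genes only. In sheep it was at 188.6, 273.4, and 202.8, and in goats at 130.9, 173.6, and 183.0. The means were 105.6 ± 7.23 in cattle, 221.6 ± 45.4 in sheep, and 162.5 ± 27.8 in goats (SD, n = 3 each). All goat libraries lay between the highest cattle and the lowest sheep library, so the 3 species did not overlap, whereas sheep and goats overlapped in CPM of the library total. On the TMM scale, all 3 cattle libraries lay below the other 6 for 21.2% of the shared genes tested. The share of genes for which all 3 species stood apart was not counted.

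**Figure D2:**
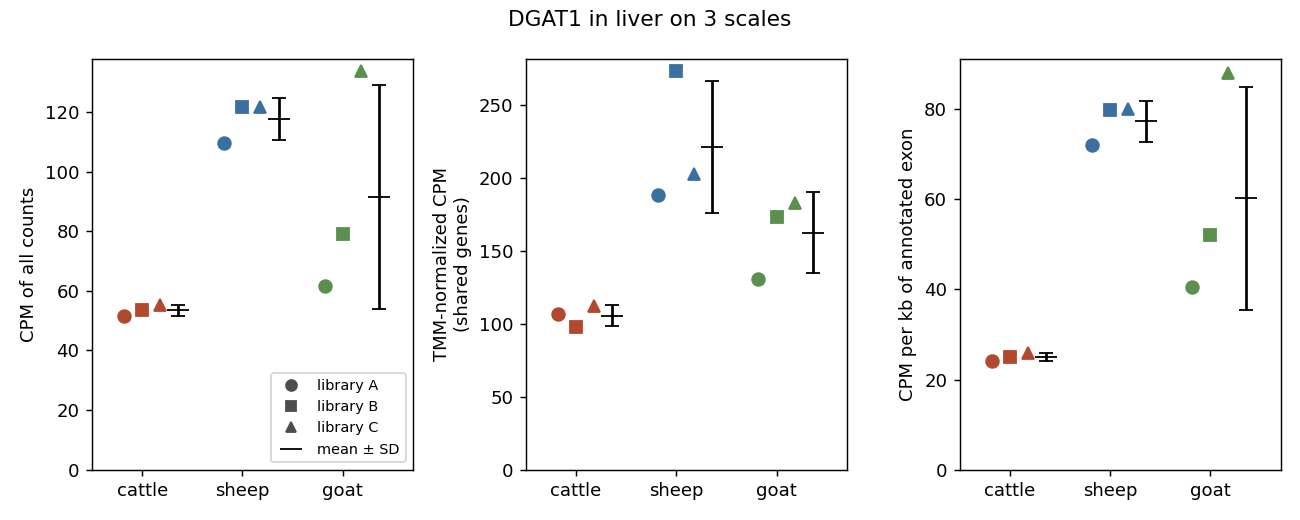
DGAT1 in each liver library (points; symbols mark libraries A, B, and C) with the mean and SD of 3 animals, as CPM of all counts, as TMM-normalized CPM over shared genes, and as CPM per kb of annotated exon. The cattle libraries lie below the other 6 in each panel, and goat C is above all sheep libraries in the left and right panels but not in the middle one.

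To test the differences between species, all 9 libraries were fitted together over the 7236 shared genes that passed the filter on low counts. DGAT1 was 2.10-fold lower in cattle than in sheep, a log2 fold change of -1.07 (SE 0.25, 95% interval -1.62 to -0.52, edgeR quasi-likelihood test with Benjamini-Hochberg adjustment, adjusted p = 0.00453). Such calls were common between these species: 48.0% of the genes tested passed in cattle against sheep, 25.2% with the lower level in cattle, and for 32.8% all cattle libraries lay below all sheep libraries. By its fold change, DGAT1 stood at percentile 21.96 of all genes, counted from those lowest in cattle relative to sheep, while the median gene had a log2 fold change of 0.01. The difference thus exceeded the spread between animals, at a size that many genes reached.

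Between cattle and goats the difference was smaller and its call depended on the processing. The log2 fold change was -0.62 (SE 0.25, 95% interval -1.17 to -0.08), a level 1.54-fold lower in cattle, with an adjusted p of 0.0539 in edgeR, just above the threshold of 0.05. The adjusted p was 0.0332 with DESeq2 and its own size factors and 0.0249 when goat A, the goat with the least DGAT1, was left out, but 0.167 without cattle B, the highest among the fits that left out 1 library. All cattle libraries lay below all goat libraries, as for 31.1% of the genes tested, while 52.1% of the genes passed the threshold in this comparison. By its fold change, DGAT1 stood at percentile 34.43, counted from the genes lowest in cattle relative to goats. The median absolute log2 fold change over all genes, 0.935, was larger than that of DGAT1. DGAT1 is not counted among the 18% of genes that were lower in cattle than in both other species.

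Between sheep and goats no difference was called. The log2 fold change was 0.45 (SE 0.25, 95% interval -0.10 to 0.99, edgeR quasi-likelihood test, adjusted p = 0.213), and the interval included 0. It was 0.25 without sheep B and 0.21 with totals of the shared genes tested in place of TMM. On mean log2 CPM of the library total, the difference was 0.44. Of the genes tested, 25.1% passed in this comparison. The order of the mean levels was therefore cattle, goats, and sheep, of which only cattle and sheep differed past the threshold.

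Dividing by annotated exon length widened the gap between cattle and the other species. In cattle DGAT1 was at 24.1, 25.1, and 25.9 CPM per kb, in sheep at 72.0, 79.9, and 79.9, and in goats at 40.7, 52.1, and 88.1. The geometric mean was 2.65-fold lower in cattle than in the other 6 libraries, and the groups did not overlap (exact two-sided permutation test of mean log2 CPM per kb, p = 0.0238, the smallest that 84 splits can give). On the same scale, all cattle libraries lay below the other 6 for 28.8% of the genes tested. Pairwise, cattle were 3.08-fold below sheep and 2.28-fold below goats in geometric mean, without overlap, as for 44.5% and 36.2% of genes, and 3 libraries against 3 cannot give an exact p under 0.1. When exon length entered the edgeR fit as an offset, the log2 fold changes became -1.56 against sheep and -1.11 against goats. The median gene moved with them, by -0.39 and -0.18, and relative to the median gene DGAT1 was at -1.18 and -0.84.

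Within each liver, DGAT1 was among the more highly expressed genes. Ranked by CPM per kb among the genes with at least 10 counts, it stood at percentile 85.4, 85.7, and 87.1 in cattle. In sheep it stood at 91.6, 92.0, and 92.1, and in goats at 86.2, 88.4, and 92.2. A rank is not scaled by the library total, but the minimum of 10 counts lets in more genes in deeper libraries. On this rank cattle lay below sheep without overlap but overlapped with goats.

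Among the 8122 shared genes only, which are the same genes in each species, the percentiles were 94.16 to 95.04 in the sheep, 91.85 to 95.95 in the goats, and 87.61 to 89.09 in the cattle, which did not overlap with either. Compared with the median gene of at least 10 counts, DGAT1 was 6.30 ± 0.597 times as high per kb in cattle, 12.3 ± 2.76 times in sheep, and 9.66 ± 1.41 times in goats (SD, n = 3 each). No test was run on these ranks, and the share of genes whose ranks stood apart between species was not counted. By CPM per kb itself, all cattle libraries lay below the other 6 for 28.8% of the genes tested.

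**Figure D3:**
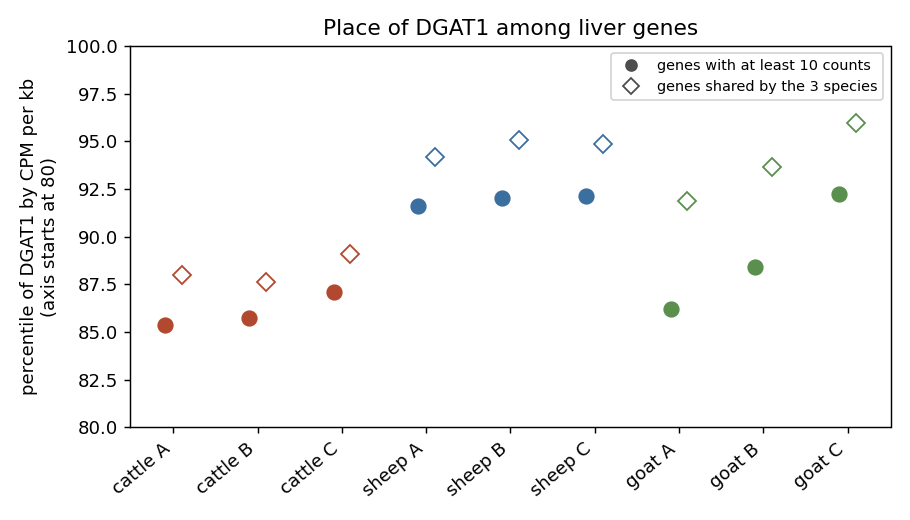
Percentile of DGAT1 by CPM per kb of exon in each of the 9 libraries, among genes with at least 10 counts (filled) and among the genes shared by the 3 species (open); the axis starts at 80. All sheep libraries lie above all cattle libraries in both, at 91.6 or more against 87.1 or less among genes with at least 10 counts.

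The genes around DGAT1 were examined next. Within 100 kb of its ends, the annotations held 18 genes in cattle, 15 in sheep, and 15 in goats, none of which shared an exon or overlapped DGAT1, and 9 of them belonged to the shared genes, in the same order in each genome. For the names of this stretch of chromosome, the RefSeq annotation of the later cattle assembly ARS-UCD2.0 gives, going upstream, SCRT1, TMEM249, FBXL6, SLC52A2, ADCK5, CPSF1, SLC39A4, VPS28, and TONSL, and going downstream HSF1, BOP1, SCX, MROH1, MIR1839, TSSK5, and HGH1. Among them, HSF1 encodes the main transcription factor of the heat shock response, CPSF1 a subunit of the complex that cuts the 3' ends of messenger RNA, VPS28 a subunit of the endosomal sorting machinery, SLC39A4 a zinc importer, and BOP1 a factor of ribosome assembly. The identifiers in the count tables were not paired with these names, so the neighbours are described by their place.

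DGAT1 was above nearly all of its neighbours per kb of exon, as it was above most genes of each liver. Among genes with at least 1 count, it was above 88.4% to 89.7% in cattle. It was above 93.2% to 93.6% in sheep and 88.6% to 93.8% in goats. Neighbours with at most 3 counts numbered 3 or 4 in the cattle libraries and 2 or 3 in the sheep and goat libraries. Per kb of exon it was above 17, 17, and 18 of the 18 neighbours in cattle A, B, and C and above 14 of 15 in every sheep and goat library. The exception was ENSBTAG00000026320, the ninth gene upstream in cattle and the eighth in sheep and goats, at 27.4 ± 5.98 CPM per kb in cattle against 104.6 ± 11.97 in sheep and 167.4 ± 30.4 in goats (SD, n = 3 each). The nearest upstream gene, 3622 nt away in cattle, was silent or nearly so, with 0, 2, and 0 counts in cattle and 0 counts in each sheep and goat library, where the floor of 3 counts allows at most 0.182 CPM. Of all counts on DGAT1 and its neighbours within 100 kb, DGAT1 took 17.0% ± 0.876 in cattle, 18.6% ± 0.850 in sheep, and 15.2% ± 2.04 in goats, over 18 neighbours in cattle and 15 in the others. Over DGAT1 and the same 9 shared neighbours it took 21.8% ± 1.37, 20.3% ± 1.01, and 16.5% ± 1.89 (SD, n = 3 each), which turns the order of cattle and sheep.

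**Figure D4:**
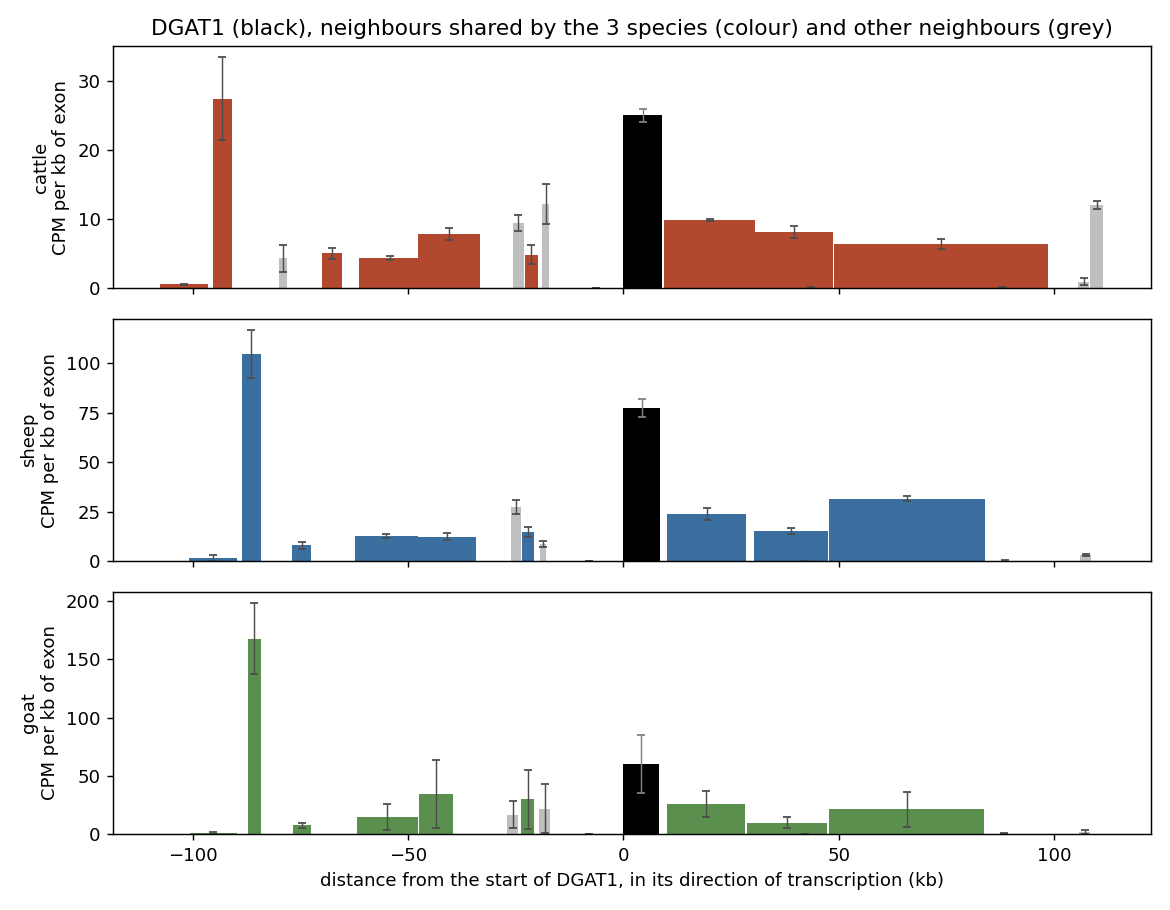
Mean CPM per kb of annotated exon (bars, with SD of 3 animals) of DGAT1 and the genes within 100 kb, against the distance in kb from the start of DGAT1 in its direction of transcription; bar width is the span of the gene, and the vertical scales differ between species. In cattle, sheep, and goats DGAT1 had 25.0, 77.3, and 60.3 CPM per kb on average, and only 1 upstream gene had a higher mean.

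The first gene downstream of DGAT1, on the opposite strand, begins 536 nt past its end in cattle but 1763 nt past it in sheep and 1800 nt in goats. Since the strand setting of the counting is not given in the sources used here, reads that run past either gene's annotated end were not told apart. This gene had 1631, 1877, and 2091 counts in cattle, 1498, 2020, and 1176 in sheep, and 1166, 700, and 1053 in goats. It did not differ past the threshold in any comparison, with log2 fold changes of -0.29 in cattle against sheep (95% interval -0.85 to 0.26) and -0.16 in cattle against goats (95% interval -0.71 to 0.40). DGAT1 therefore had 1.58 ± 0.0573 counts per count of this neighbour in cattle, 2.75 ± 0.260 in sheep, and 2.19 ± 0.360 in goats (SD, n = 3 each), a ratio that does not depend on the library total. The cattle ratios, 1.51 to 1.62, lay below all sheep ratios, 2.46 to 2.93, and all goat ratios, 1.89 to 2.59. The annotated length of this neighbour also differs, with 3416 nt in cattle against 1805 nt in sheep and 1629 nt in goats. Per kb the ratio in cattle, 2.42 to 2.59, fell within that in goats, 2.02 to 2.78. It stayed below that in sheep, 2.91 to 3.48.

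Of the 9 shared neighbours, 4 were lower in cattle than in sheep and none was higher (edgeR, adjusted p under 0.05), beside 25.2% of all genes that were lower and 22.9% that were higher. Against goats, 5 of the 9 were lower in cattle and none was higher, beside 27.9% and 24.2% of all genes. The 4 neighbours called against sheep were also called against goats, comparisons that share the cattle libraries. Between sheep and goats, 0 of the 9 were called in the main edgeR fit, beside 13.9% of all genes that were lower and 11.2% that were higher in sheep. DESeq2 called 1, as did edgeR with upper-quartile factors or with the length offset. In the main fit, 3 of the 9 had an unadjusted edgeR p under 0.05, a share that was not counted over all genes. The median log2 fold change of the 9 neighbours was -1.43 in cattle against sheep and -1.24 in cattle against goats, where that over all genes was 0.01 and -0.10. These medians rested on single libraries: without sheep B the first was -0.22, and without goat C the second was -0.65.

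DGAT1, at -1.07 and -0.62, was less far below 0 than each called neighbour in the same comparison. The change in cattle against sheep reached its lowest value of the 9 at the fourth gene downstream, ENSBTAG00000014458, at 63.9 ± 5.34 TMM-normalized CPM in cattle, 300.6 ± 41.4 in sheep, and 176.1 ± 80.1 in goats. Its log2 fold change was -2.23 against sheep (edgeR, adjusted p = 0.000368) and -1.46 against goats (adjusted p = 0.0039). The upstream gene ENSBTAG00000026320, with the highest level per kb of the 9, was 2.80-fold lower in cattle than in sheep and 3.48-fold lower than in goats (edgeR, adjusted p = 0.00138 and 0.000438).

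The called genes were not contiguous. In cattle against sheep, upstream genes 3, 6, and 9 and downstream gene 4, counted from DGAT1, were called, while downstream genes 1 and 2 and upstream genes 5, 7, and 10 were not. Upstream gene 5 was called against goats alone, and its goat level, 103.4 ± 61.6 TMM-normalized CPM (SD, n = 3), overlapped with the cattle level.

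**Figure D5:**
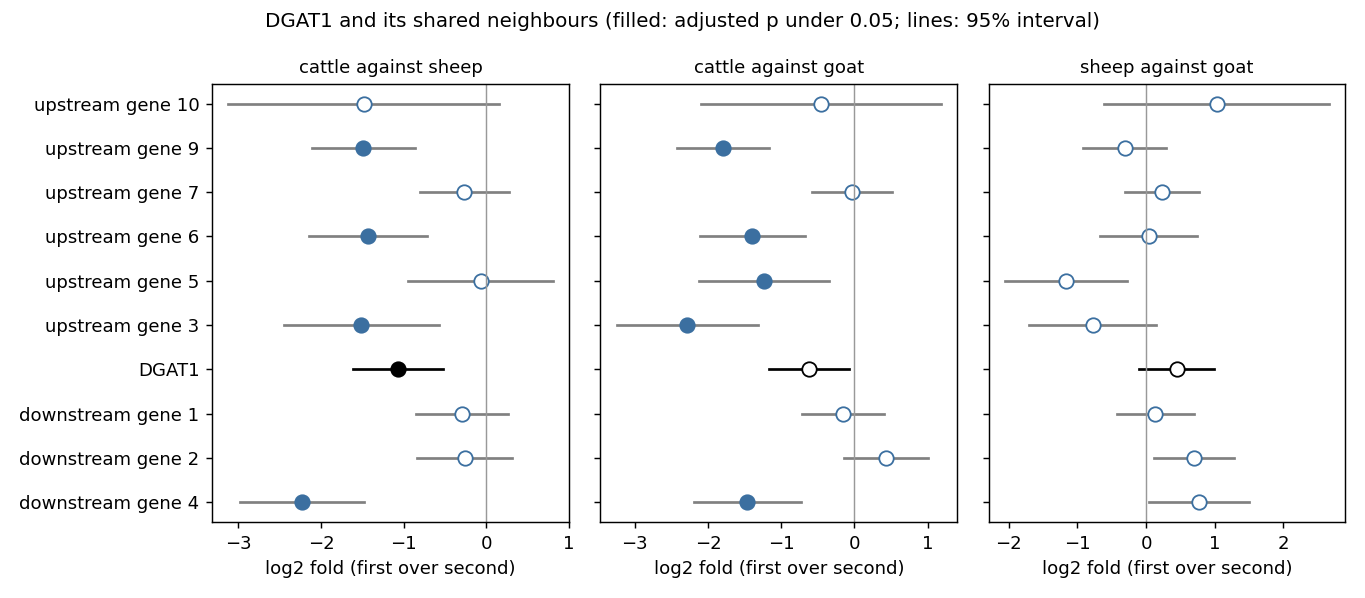
Log2 fold change of TMM-normalized counts with its 95% interval for DGAT1 (black) and its 9 shared neighbours in order along the chromosome, for the 3 comparisons of species; filled points have an adjusted p under 0.05 and places are those in cattle. DGAT1 is filled in cattle against sheep alone, and every called neighbour lies to the left of 0 in the comparisons with cattle.

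The goat libraries differed more in the median neighbour than in DGAT1. DGAT1 had 2.17 times the CPM in goat C that it had in goat A, the median shared gene 1.55 times, and the 9 shared neighbours 1.33 to 7.66 times with a median of 3.86. Against goat B the factors were 1.69 for DGAT1, 1.66 for the median gene, and a median of 2.23 for the neighbours. DGAT1 in goat C was thus close to the shift of the median gene against goat B but above it against goat A. Goat B over goat A gave 1.28 for DGAT1, 0.972 for the median gene, and a median of 1.37 for the neighbours. With goat C left out, DGAT1 in cattle against goats had a log2 fold change of -0.50 (edgeR, adjusted p = 0.113).

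The 5 shared genes whose profile over the 9 livers was most like that of DGAT1 lay on other chromosomes of the cattle genome ARS-UCD1.2. By Pearson's r of log2(TMM-normalized CPM + 1), given as a description over 9 libraries of 3 species, they were a gene on chromosome 18 (55373388 to 55376353, r = 0.981), one on chromosome 11 (87654106 to 87710164, r = 0.981), one on chromosome 16 (50775398 to 50830785, r = 0.978), one on chromosome 22 (50883645 to 50897890, r = 0.977), and one on chromosome 21 (33464548 to 33471171, r = 0.976). Libraries of a species share its mean level, and an r above 0.9 with DGAT1 was not rare, as 267 of 7235 genes had one. In all 5 the species means ran from cattle through goats to sheep, as for DGAT1. The genes were chosen by r over these same libraries, so this order is no further likeness. The gene on chromosome 18 was at 0.0433, 0, and 0 TMM-normalized CPM in cattle, under the floor of 3 counts in each, and passed the filter through sheep and goats only, and the gene on chromosome 16 was at 0.433 to 0.663 in cattle. The gene on chromosome 22 came nearest to it in level, with 14.9 TMM-normalized CPM in cattle, 63.4 in sheep, and 38.7 in goats. Of the neighbours, ENSBTAG00000014458 had the highest r, 0.962, the 23rd of all genes, while the first downstream gene had 0.679.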

How the data were processed

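Liver mRNA, enriched with oligo(dT) beads, was sequenced from 9 animals. The authors trimmed the reads with Trimmomatic 0.39, mapped them with STAR 2.7.6 to the Ensembl genome of each species, and deposited the raw counts per gene made with featureCounts, which are neither normalized nor corrected for length. The labels name ARS-UCD1.2 for all samples; the sheep and goat builds are those of the study's methods and identifiers. Groups and letters came from the sample titles.

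Genes were paired between species as reciprocal best matches of internal exon lengths, scored at 1.05 times the runner-up or more, sharing 2 or more internal exons and 50% of the shorter list, and kept where 2 or more further pairs lay nearby (10 pairs to either side) in each genome. Tested on simulated data, a damaged copy of the cattle annotation, this recovered 75.3% of 12381 genes with 0 wrong among 9329 pairs. The copy kept the cattle gene order, so this checks the pairing under those settings only and not between species. Genes with a TMM-normalized CPM above 1 in at least 2 libraries entered a quasi-likelihood fit in edgeR 4.0.16 (R 4.3.3, TMM, robust fit, all 9 libraries, Benjamini-Hochberg adjustment over 7236 genes); DESeq2 1.42.0 served as a second tool. In simulated counts with 200 of 7236 genes changed 4-fold in cattle, edgeR called 198 of these and 7 others in cattle against sheep. In cattle against goats it called 194 of these and 10 others. The simulation gave all genes and species the same spread setting and changed far fewer genes than were called in the data. It therefore checks the fit under those settings only. Permutation tests used scipy 1.17.1. Chi-square comparisons of replicates found no library deposited more than once.

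DGAT1, its neighbours within 100 kb, and the 5 genes most like it were named by rule. The rule for DGAT1 uses no expression value, but the gene, the lists, and the tests were picked with earlier results of these data known. No identifier in the count tables matched the RefSeq gene table by Ensembl ID, so lists that need gene names (triglyceride synthesis, the acyltransferase family, lipid droplets and lipoprotein assembly, triglyceride breakdown, fatty acid uptake, DGAT2, cell type markers) were not used here.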

Additional observations from a re-analysis of the deposited data

How the results depend on the processing

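DGAT1 in cattle against sheep kept its direction and its call in all 18 alternatives. Its log2 fold changes ran from -1.56 (offset of exon length) to -0.88 (the highest with 1 library left out). Sheep against goats stayed uncalled in all 18, at 0.21 (totals of the shared genes without TMM) to 0.59 (without goat C). Cattle against goats kept its direction in all 18 and passed the threshold in 7. These were DESeq2 (-0.62), totals of the shared genes without TMM (-0.85), upper-quartile factors (-0.67), and a CPM above 1 in every library (-0.67). The others were the offset of exon length (-1.11) and the fits without sheep B or without goat A. Leaving out 1 library gave -0.77 to -0.50 in cattle against goats. Totals of the shared genes without TMM moved the median gene by -0.20 in this comparison. The cause of these changes was not tested.

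Equal letters did not meet the rule used for a pairing, an r above 0.1 in every same-letter pair. Same-letter libraries deviated together with r from -0.194 to 0.169 (cattle and sheep), -0.134 to 0.021 (cattle and goats), and 0.022 to 0.292 (sheep and goats). In sheep and goats, A with A and B with B had 0.292 each, above all different-letter pairs, -0.276 to 0.099. In cattle and sheep the highest r, 0.305, was between different letters. With the letter as a block, the log2 fold changes of DGAT1 were -1.05, -0.60, and 0.45, with no change of call.

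For CPM per kb, cattle against the other 6 was -1.55 to -1.33 with 1 library left out, where 2 cattle libraries cannot give a p under 0.0714. Cattle against sheep was -1.50 without mitochondrial counts, -1.54 with the TMM-scaled total, and -1.14 without division by length, and cattle against goats -0.70 without it. The mean percentile was 88.9 in cattle and 93.5 in sheep over genes with at least 1 count, 92.4 in sheep by CPM, and 88.2, 94.7, and 93.8 in cattle, sheep, and goats over shared genes.

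Within 200 kb, 7, 10, and 2 of 16 shared neighbours were called in cattle against sheep, cattle against goats, and sheep against goats. The shares called over all genes were 48.0%, 52.1%, and 25.1%. Within 100 kb, sheep against goats gave 1 call each with DESeq2, upper-quartile factors, and the length offset. Of all genes, 30.9%, 24.7%, and 24.3% were called in these settings. With 1 library left out it gave 0 to 2 calls (2 lower in sheep without goat A, 2 higher without goat C, 1 lower without sheep B). Cattle against sheep then gave 3 to 5 calls, beside 37.6% to 53.4% of all genes. Cattle against goats gave 4 to 5, beside 41.1% to 55.4%. With the length offset these 2 comparisons gave 6 calls each, beside 48.7% and 50.4% of all genes. Of the 5 genes most like DGAT1, 2 were kept with Spearman's rho and 2 without TMM. The gene lists and the ratio to DGAT2 could not be run without names. With 3 animals and 1 breed per species, no p-value takes account of spread beyond these animals. In edgeR, the spread of a gene was estimated with information shared over the genes tested and the 3 species.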
